A study of Mus musculus with 15 samples.

Results

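The promoters of the proteasome subunit genes were described through their nucleosome occupancy in mouse dendritic cells (DCs) and fibroblasts. Members were found by mapping the RefSeq identifier of each annotated promoter to a gene symbol and keeping symbols that begin with Psma, Psmb, Psmc, Psmd, Psme, Psmf or Psmg followed by a digit, apart from the immunoproteasome genes Psmb8 and Psmb9. This gave 49 of 25881 promoters, for 48 gene symbols. Of these, 31 had a coverage score above 100, the authors' bound for high coverage, which 13559 of all promoters pass. The other 18 members had a score of 100 or less and are described separately. The members nearest to this bound were Psma3 at 103.5 and Psmf1 at 104.0 above it, and Psmd4 at 95.3 and Psmd11 at 94.8 below it.

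Occupancy was measured by ChIP-MNase, in which long chromatin fragments are enriched with an antibody and then trimmed to nucleosome size by micrococcal nuclease (MNase). An antibody against H3K4me1, a histone mark found around promoters and enhancers, was used for 4 sets that each pool 2 replicates. These are DCs, non-stimulated or given LPS (100 ng/ml, 1 h), and 3T3 cells, an immortalised fibroblast line, non-stimulated or given TNF-α (5 ng/ml, 1 h). The DCs were differentiated in vitro from bone-marrow progenitor lines. The same antibody was used for 8 single libraries of 3T3 fibroblasts, 2 each of control and BAF-knockdown cells with and without TNF-α. BAF-knockdown cells carry a stable shRNA against a sequence shared by Brg1 and Brm, the ATPases of the BAF remodelling complex, and the depth of the knockdown was not analysed here. Stimulated fibroblasts were also profiled with antibodies against RNA polymerase II phosphorylated at serine 7 (pol-II S7P, 2 libraries) or serine 5 (pol-II S5P, 1 library). The pooled sets and the S5P library carry no replicate error, and whether the S5P file holds more than one of the study's replicates is not given in the sources used here.

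The proteasome is the main protease of the cytosol and nucleus, and it degrades proteins that are tagged with ubiquitin. Its core particle is a stack of α rings, which gate entry, and β rings, which hold the catalytic sites. A regulatory particle of ATPases and non-ATPase subunits binds, unfolds and feeds the substrates, and dedicated chaperones assemble both particles. Most of these genes are expressed in every cell, whereas an immune form of the core and the PA28 activator are raised by interferon and serve antigen presentation. The subunits are needed in fixed proportions, and their genes are known for coordinated transcription.

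By role, the members comprised 8 promoters of α-ring genes, 9 of β-ring genes, 6 of regulatory-particle ATPases, 11 of regulatory-particle non-ATPases, 7 of assembly chaperones and 6 of activators or inhibitors. The 2 remaining members, Psmc3ip and Psme3ip1, have matching symbols but encode proteins named after a subunit they bind. Psme2, the β chain of PA28, had 2 start sites 80 bp apart that share most of their windows and are not independent. The start site listed for Psmc1, an ATPase, lay 2145 bp downstream of the annotated start of its transcript and inside an exon. An annotated transcript start of the same build was found within 50 bp of 48 (98.0%) of the 49 members, against 86.1% of 25738 promoters.

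Sequence upstream of the start sites was read from the NCBIM37 (mm9) genome. The 150 bases before the start site are shown for 7 members. Of these, 5 held a motif match and had a more regular arrangement in non-stimulated fibroblasts than the median member, as described below. The others are the immune and thymus forms Psmb10 and Psmb11, which had no match in these bases. These 7 are a selection, and a relation between motif matches and regularity across the members was not tested. All 7 stretches run 5′ to 3′ on the strand of the gene and end at the base before the start site. Capitals mark matches, on either strand, to letters that are known to be bound by transcription factors. The letters searched for ETS factors were CCGGAAG, those for the factor NRF1 were GCATGCGC, and those for the factor NFY were GCCAAT. Those for the factor YY1 were AAGATGGC, those for the core of the antioxidant response element (ARE) were TGACNNNGC, those for the TATA box were TATAAA, and those for the factor SP1 were GGGCGG.
Psma2, chr13:14705359-14705508, plus strand: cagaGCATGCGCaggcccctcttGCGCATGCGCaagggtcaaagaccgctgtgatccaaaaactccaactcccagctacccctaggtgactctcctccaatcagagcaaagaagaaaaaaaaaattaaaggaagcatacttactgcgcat
Psmc6, chr14:45949349-45949498, plus strand: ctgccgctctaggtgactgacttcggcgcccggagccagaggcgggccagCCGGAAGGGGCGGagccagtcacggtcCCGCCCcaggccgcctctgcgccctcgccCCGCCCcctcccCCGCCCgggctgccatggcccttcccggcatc
Psmd2, chr16:20651575-20651724, plus strand: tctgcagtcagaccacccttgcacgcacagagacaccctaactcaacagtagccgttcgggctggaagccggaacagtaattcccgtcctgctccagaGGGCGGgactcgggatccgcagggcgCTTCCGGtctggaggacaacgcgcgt
Psmb6, chr11:70338709-70338858, plus strand: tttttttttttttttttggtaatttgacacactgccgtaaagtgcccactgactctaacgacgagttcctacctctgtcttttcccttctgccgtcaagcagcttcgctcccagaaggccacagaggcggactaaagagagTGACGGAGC
Psmd5, chr2:34726483-34726632, minus strand: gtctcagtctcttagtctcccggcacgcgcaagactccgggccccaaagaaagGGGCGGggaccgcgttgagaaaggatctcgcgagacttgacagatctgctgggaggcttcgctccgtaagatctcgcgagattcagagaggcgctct
Psmb10, chr8:108462293-108462442, minus strand: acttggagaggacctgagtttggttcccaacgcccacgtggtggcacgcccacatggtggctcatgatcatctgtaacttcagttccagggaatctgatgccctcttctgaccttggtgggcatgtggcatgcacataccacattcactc
Psmb11, chr14:55243997-55244146, plus strand: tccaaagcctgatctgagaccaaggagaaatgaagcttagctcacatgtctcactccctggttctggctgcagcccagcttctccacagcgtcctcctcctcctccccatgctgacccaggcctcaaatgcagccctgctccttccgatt

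The Psma2 stretch held 3 matches to the NRF1 letters, a pair of which overlap because the letters are partly palindromic. In Psmc6 an ETS match directly adjoined an SP1 match, and 3 more SP1 matches lay on the other strand. Psmd2 held an ETS and an SP1 match, Psmb6 a match to the ARE core that ended at the base before the start site, and Psmd5 a single SP1 match. Psmb10 and Psmb11 held no match in these 150 bases. The CG dinucleotide occurred 16, 14 and 13 times in the Psmc6, Psmd5 and Psmd2 stretches, but 3 times in Psmb10 and 2 times in Psmb11.

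Across all 49 members, 42 (85.7%) had a CpG island (CGI) at the start site, taken as over 50% GC and over 0.6 of the CpG number expected from base composition within 200 bp on either side. The share was 48.3% of 25733 promoters. The 7 members without a CGI were Psmb10 and Psmb11, Psme1 and both starts of Psme2, which encode PA28, the chaperone gene Psmd10, and the displaced start of Psmc1. In the 250 bases before the start site, ETS letters were found at 16 members (32.7%), against 8.87% of all promoters and 15.4% of all CGI promoters. NRF1 letters were found at 4 members (8.16%; all 2.80%), NFY letters at 12 (24.5%; all 15.4%), the ARE core at 7 (14.3%; all 10.7%), SP1 letters at 27 (55.1%; all 42.1%), TATA letters at 5 (10.2%; all 11.8%) and YY1 letters at 1 (2.04%; all 1.58%).

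Of the 16 members with ETS letters, 8 encode subunits of the regulatory particle. The letters stood before the ATPase genes Psmc2, Psmc3 and Psmc6, before the non-ATPase genes Psmd2, Psmd4, Psmd6, Psmd11 and Psmd12, before the chaperone genes Psmg1 and Psmg3, before the activator genes Psme3 and Psme4 before Psmc3ip and before 3 core genes, Psma6, Psma8 and Psmb7. Cytosolic ribosomal protein promoters, another large housekeeping family, held ETS letters at 29.9% of 97 promoters. The ARE core was found before the catalytic β-ring genes Psmb5 and Psmb6, and before Psmb2, Psmc6, Psmd7, Psmd9 and Psmd12. A gene on the opposite strand started within 1000 bp upstream of 10 members (20.4%), against 9.16% of all promoters. Among promoters with a CGI the shares were close, at 16.7% of 42 members and 16.05% of 12427 promoters. Among those with a coverage score above 100 they were 32.3% of 31 members and 16.02% of 13559 promoters. The closest partners of the members were Ss18l1 at 81 bp from Psma7 and Sirt3 at 85 bp from Psmd13.

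**Figure D1:**
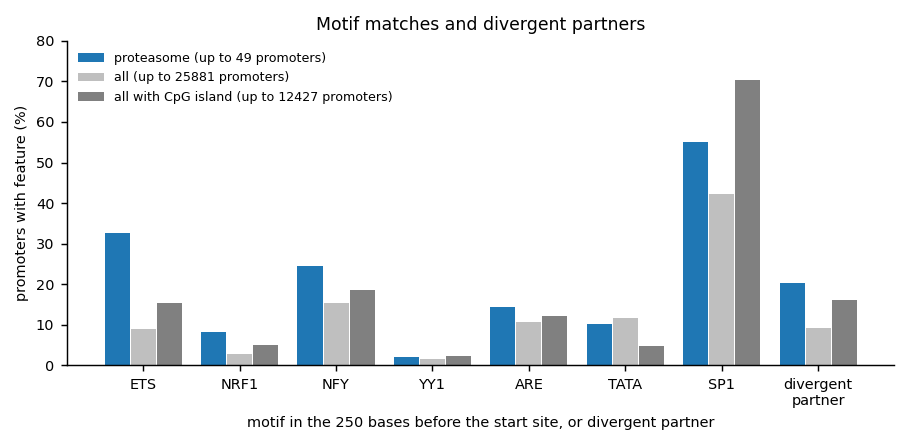
Percentage of promoters with each motif in the 250 bases before the start site, or with a divergent partner within 1000 bp, for 49 proteasome promoters (blue), all promoters (light grey) and all promoters with a CGI (dark grey). ETS letters occur at 32.7% of proteasome promoters and 15.4% of CGI promoters, whereas SP1 letters occur at 55.1% and 70.2%.

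Facts that hold for the whole series were as follows. Occupancies are fragments in 10 bp bins relative to the surrounding 1 kb, given in 200 bins from −1000 to 1000 bp of each start site, without read counts, so the depth of each library is unknown from the files, and the study's methods give only a range. At the 31 high-coverage members, fragments covered 75.5 to 87.9% of bins in pooled sets. For single libraries this was 61.5 to 79.6% with H3K4me1 and 84.6 to 93.6% with pol-II. Mean occupancy ran from 1.61 to 1.63 (pooled), from 0.791 to 0.804 (single, H3K4me1) and from 0.962 to 0.975 (pol-II), so patterning levels were compared between these kinds only after scaling by it. By the authors' expression values, 7 of 8 DC markers were active in DCs (Flt3, at 0.0175, was not) and 1 of 8, Cd74, in fibroblasts. All 8 fibroblast markers were active in fibroblasts and 3 of 8 in DCs. These are bulk chromatin samples, in which fewer cells with an arrangement and a weaker arrangement in every cell cannot be told apart.

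How regularly nucleosomes were arranged at the proteasome promoters was measured in 2 ways. The patterning level is the match of a promoter's occupancy to the mean profile of active promoters in the non-stimulated cell type, and it is near 0 or negative where the usual arrangement is missing. The NDR ratio is the occupancy over the nucleosome-depleted region (NDR), from −150 to 0 bp, relative to that from −1000 to −500 bp, each with 0.1 added, on the log2 scale. Where the window is empty the ratio is at a floor, so it understates the deepest depletion. At the members' median flank the floor lay between −4.18 and −4.15 in pooled sets, −3.28 and −3.19 in single H3K4me1 libraries, and −3.45 and −3.43 in pol-II libraries. Windows were empty at 6 to 9 of the 31 members in pooled sets, at 2 to 15 in single H3K4me1 libraries and at 1 or 2 in pol-II libraries, and ratios below these bounds come from members with a higher flank.

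In non-stimulated fibroblasts the 31 high-coverage members had a median patterning level of 15.3 (interquartile range 8.12 to 21.4), compared with 5.74 for all promoters and 10.5 for the 6458 active ones. Of the 31, 26 lay above the median of all promoters and 16 lay above the 75th percentile of all promoters. Non-stimulated DCs gave a median of 15.1 (10.3 to 19.7), against 5.59 for all promoters and 8.31 for the 8373 active ones, with 26 members above the median and 19 above the 75th percentile of all promoters. Ribosomal protein promoters (n = 72) had medians of 10.3 in fibroblasts and 13.1 in DCs. By the authors' expression values, 52.6% of all 97 ribosomal protein promoters were active in fibroblasts and 89.7% in DCs. The shares of the 49 members were 91.8% and 95.9%, so in fibroblasts the 2 families are less alike in activity. The promoters of proteasome genes were thus among the more regularly arranged ones in both cell types.

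The NDR was deep at most members. The median log2 NDR ratio was −2.31 in non-stimulated fibroblasts, where 23 of 31 members (74.2%) were below −1, compared with a median of −0.61 and 39.5% for all promoters. In non-stimulated DCs it was −1.34, with 18 of 31 (58.1%) below −1, compared with −0.58 and 38.0%. Ribosomal protein promoters (n = 72) had medians of −1.71 in fibroblasts and −1.68 in DCs, where theirs was thus lower than that of the members. The 6458 promoters active in fibroblasts had a median of −1.22 there. On the mean profile of the members, occupancy in fibroblasts fell to 17.7% of its mean over the 2 kb window at −45 bp and rose to 186.5% at the +1 nucleosome, the first downstream of the start site, at 145 bp. At active promoters the corresponding values were 46.2% and 161.8%. In DCs the members reached 26.8% at their lowest point and 196.0% at the +1 nucleosome, against 52.6% and 145.4% at active promoters. Ribosomal protein promoters had 31.2% and 172.4% in fibroblasts, and 28.3% and 192.6% in DCs.

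The arrangement was more regular at members with a CGI. The 24 high-coverage members with a CGI had median patterning levels of 18.0 in fibroblasts and 16.3 in DCs and median log2 NDR ratios of −2.73 and −1.62. The 7 without one had levels of 1.17 and 3.86 and ratios of −0.05 and −0.56. The same split over all promoters gave 10.3 with and 1.31 without a CGI in fibroblasts. On the mean profile of CGI members, occupancy fell to 8.89% of the mean in fibroblasts and 23.1% in DCs, and the +1 nucleosome reached 219.5% and 224.1%. These groups differ in size and both starts of Psme2 are among the 7, so the values are descriptions of the promoters without a test.

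**Figure D2:**
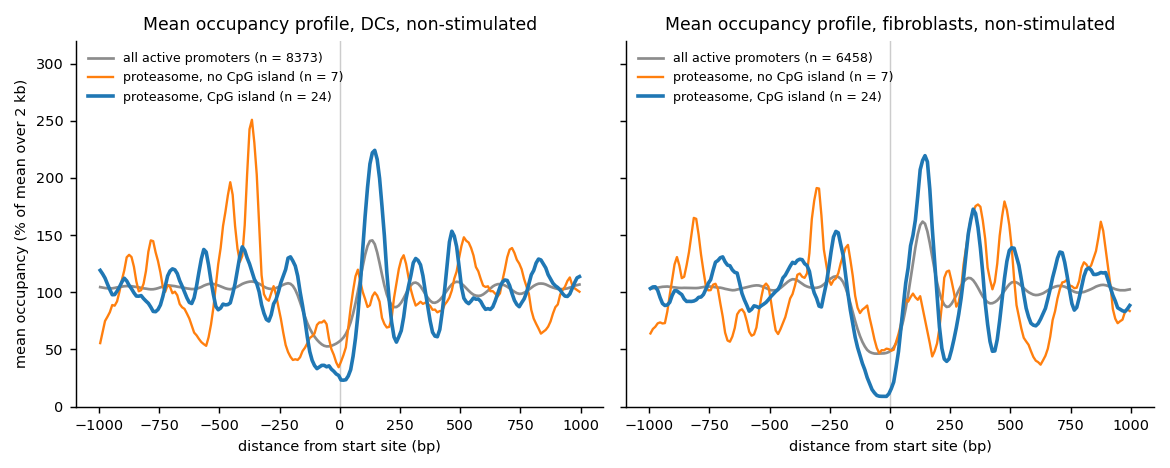
Mean nucleosome occupancy (percentage of the mean over 2 kb) by distance from the start site in pooled non-stimulated DCs (left) and fibroblasts (right). The 24 proteasome promoters with a CGI (blue) show a deeper trough and a higher first downstream peak than all active promoters (grey), with lows of 23.1% and 8.89%, while the 7 without a CGI (orange) have lows of 34.4% and 46.7% and reach 120.4% and 118.9% where the first downstream peak was sought. Extremes of a mean over few promoters lie further out by scatter alone.

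Members with a divergent partner (n = 10) had median patterning levels of 16.7 in fibroblasts and 18.4 in DCs, and median log2 NDR ratios of −3.30 and −3.70. The other 21 had levels of 13.1 and 13.4 and ratios of −1.49 and −0.68. Neither group was split by CGI. The 7 high-coverage members with ETS letters all lay above the median of all promoters in both cell types, with median levels of 17.6 and 20.5. Those without the letters (n = 24) had medians of 12.1 and 12.7, but all 7 with the letters have a CGI and the 24 include the 7 members without one. The 17 CGI members without the letters had medians of 18.4 and 13.4, so that in fibroblasts the order was the reverse among CGI members.

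Arranged by role, the α-ring promoters (n = 4) had a median patterning level of 21.6 in fibroblasts and 20.1 in DCs. Psma2 was the highest member in DCs, with a level of 32.5 and a log2 NDR ratio of −4.27, and it was also high in fibroblasts (27.9 and −4.04). Psma7 had the second highest level of the members in fibroblasts at 33.1, with a ratio of −4.12, and a level of 21.2 in DCs. Both have a divergent partner. Psma4, at 15.3 in fibroblasts and 10.1 in DCs, and Psma3, at 8.95 and 18.9, were lower in at least 1 cell type, so that even within the α ring the levels ran from 8.95 to 33.1 in fibroblasts.

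The β-ring promoters (n = 7) held both high and low members, with medians of 12.7 in fibroblasts and 10.6 in DCs. Of the catalytic subunits, Psmb6 had levels of 25.1 and 13.4 and log2 NDR ratios of −2.81 and −0.80 in fibroblasts and DCs. Psmb5, the target of proteasome inhibitors used as drugs, had levels of 12.7 and 10.6 and ratios of only −0.40 and −0.58. The third catalytic gene, Psmb7, had a low coverage score (90) and levels of 6.85 and 13.3. Psmb1, Psmb4 and Psmb3, which are structural, lay at 21.6, 22.3 and 6.69 in fibroblasts. The catalytic subunits did not share one arrangement.

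The immune and thymus forms had the lowest levels of the β ring in both cell types. Psmb10, the interferon-inducible form of a catalytic subunit, had levels of −0.44 in fibroblasts and 3.68 in DCs and positive log2 NDR ratios of 0.33 and 0.25, so occupancy over its start site was above that of its flank. Psmb11, which is made in thymus cortex, had levels of −0.24 and 3.86 and ratios of 0.05 and −0.56, and its expression values were 0.0239 in fibroblasts and 0.00744 in DCs. The excluded immunoproteasome gene Psmb8 had still lower levels of −7.27 and −14.1 and no CGI. Psmb9, which has a CGI and shares its upstream region with Tap1, a peptide transporter gene, had levels of 7.30 and −1.84, with a ratio of −3.11 in fibroblasts and −0.70 in DCs.

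Among ATPase promoters (n = 4; medians 18.0 and 21.2), Psmc6 had levels of 22.8 in fibroblasts and 21.99 in DCs, Psmc5 18.4 and 20.5, and Psmc2 17.6 and 26.6. Psmc2 had log2 NDR ratios of −3.66 and −4.36. At the start listed for Psmc1 the levels were −2.41 and −1.38 and the ratios −0.05 and −0.07, and this is the start that lies within the transcript. Of the non-ATPase promoters (n = 4; medians 21.1 and 16.2), Psmd13, a lid subunit, was high in both cell types at 32.0 and 22.1, and Psmd2, a scaffold subunit of the base, was at 21.02 and 17.3. Psmd1, the other scaffold, and Psmd12, a lid subunit, were at 21.3 and 13.1 in fibroblasts. Their log2 NDR ratios were −3.46 and −3.54 there and 0.22 and 0.04 in DCs.

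Of the chaperones (n = 5; medians 11.9 and 16.1), Psmd5 had the highest patterning level of all members in fibroblasts, 39.5, with a log2 NDR ratio of −4.26. In DCs its level was 16.2 and its ratio −1.34. Psmg2, Psmg3 and Psmg4, which help to build the α ring, were at 0.29, 11.9 and 11.5 in fibroblasts and at 13.1, 16.1 and 16.3 in DCs. Psmd10, the only chaperone gene without a CGI, was at 15.9 and 13.7 with ratios of −3.03 and −1.21. It was thus the single CGI-free member with a level above the median of all members in fibroblasts.

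The activators and inhibitors (n = 5) had the lowest median in fibroblasts, 7.62, and 12.3 in DCs. Psme1, the α chain of PA28, was the lowest member in DCs at −2.73, with a log2 NDR ratio of −0.17, whereas in fibroblasts it stood at 7.62 with a ratio of −1.16. Psme2 went the other way: from its upstream start the level was 12.3 and the ratio −3.86 in DCs, but 1.17 and 0.14 in fibroblasts. From its downstream start the values were 16.3 and −3.79 in DCs, and 8.62 and −2.40 in fibroblasts. The partners of 1 heteromeric ring thus had opposite orders between the cell types in the pooled sets, which was not tested. In the single libraries of non-stimulated control fibroblasts, given below, the upstream start of Psme2 lay above Psme1. Psme3, which forms the nuclear PA28, had levels of 16.04 in fibroblasts and 20.5 in DCs, and Psmf1, an inhibitor of the core, 6.97 and −1.44. Both proteins with matching names were well patterned, Psmc3ip at 18.9 and 21.6 and Psme3ip1 at 10.7 and 11.1. Leaving them and Psmc1 out moved the median of the members to 15.6 in both cell types.

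**Figure D3:**
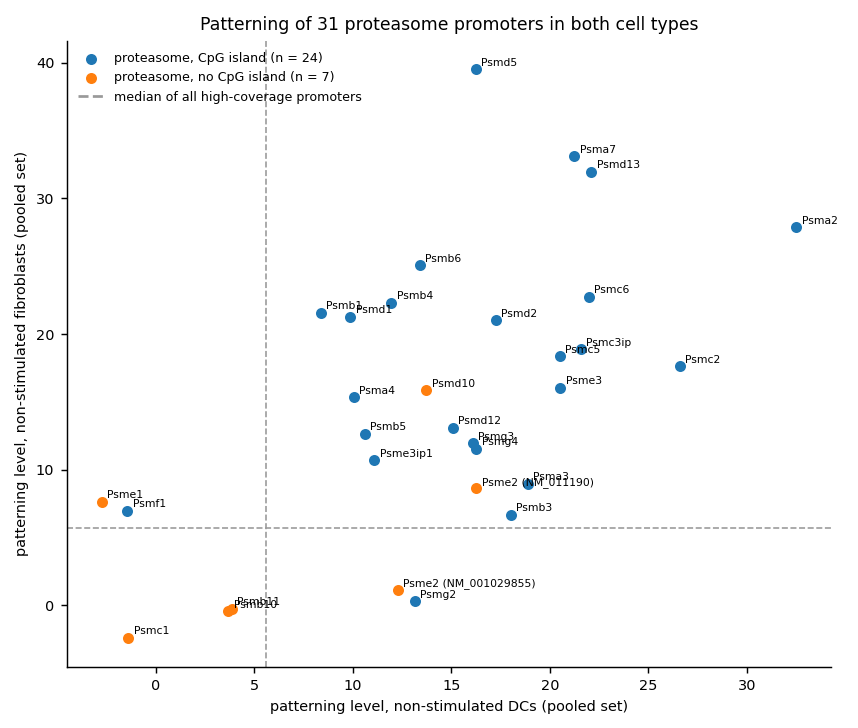
Patterning level of each of 31 proteasome promoters in pooled non-stimulated DCs (horizontal) and fibroblasts (vertical), with CGI promoters in blue, others in orange and dashed lines at the medians of all high-coverage promoters. Of the 31, 24 lie above both lines, 3 (Psmc1, Psmb10 and Psmb11) below both, Psme1 and Psmf1 above the line in fibroblasts only, and Psmg2 and the upstream start of Psme2 above it in DCs only.

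The 18 low-coverage members are mostly core and regulatory-particle genes, and all 18 have a CGI. They are Psma1, Psma5, Psma6, Psma8, Psmb2, Psmb7, Psmc3, Psmc4, Psmd3, Psmd4, Psmd6, Psmd7, Psmd8, Psmd9, Psmd11, Psmd14, Psme4 and Psmg1. Their median patterning level was 14.9 in fibroblasts and 12.7 in DCs, and their median log2 NDR ratio −3.75 and −2.47. The median expression value of these 18 in fibroblasts was 41.5, compared with 22.6 for the 31 above the bound, so the bound removed well expressed members. The order was the reverse over all promoters, with medians of 0.0254 at low and 1.22 at high coverage. Low-coverage promoters also had the higher median among those active in fibroblasts (11.9 against 9.11) and among ribosomal protein promoters (8.04 against 1.52). Single values of the 18 low-coverage members rest on few fragments.

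Of the low-coverage members, Psmc3, an ATPase, had levels of 28.3 and 20.6 and log2 NDR ratios of −4.42 and −4.49 in fibroblasts and DCs. Psmd4, a ubiquitin receptor, had levels of 22.6 and 21.9, and Psmd14, the deubiquitinase of the lid, 16.5 and 11.1. The chaperone gene Psmd9 was at 29.9 and 12.9, and the activator gene Psme4 at 8.15 and 8.26. The exception was Psma8, which encodes a testis form of an α subunit: its levels were −10.4 and −12.5, its ratios 1.00 and 1.102, and its expression values 0 in fibroblasts and 0.185 in DCs. Psmd7 and Psma5 also lacked an NDR in DCs, with ratios of 0.68 and 0.90. Their expression values there were 5.39 and 1.87.

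**Figure D4:**
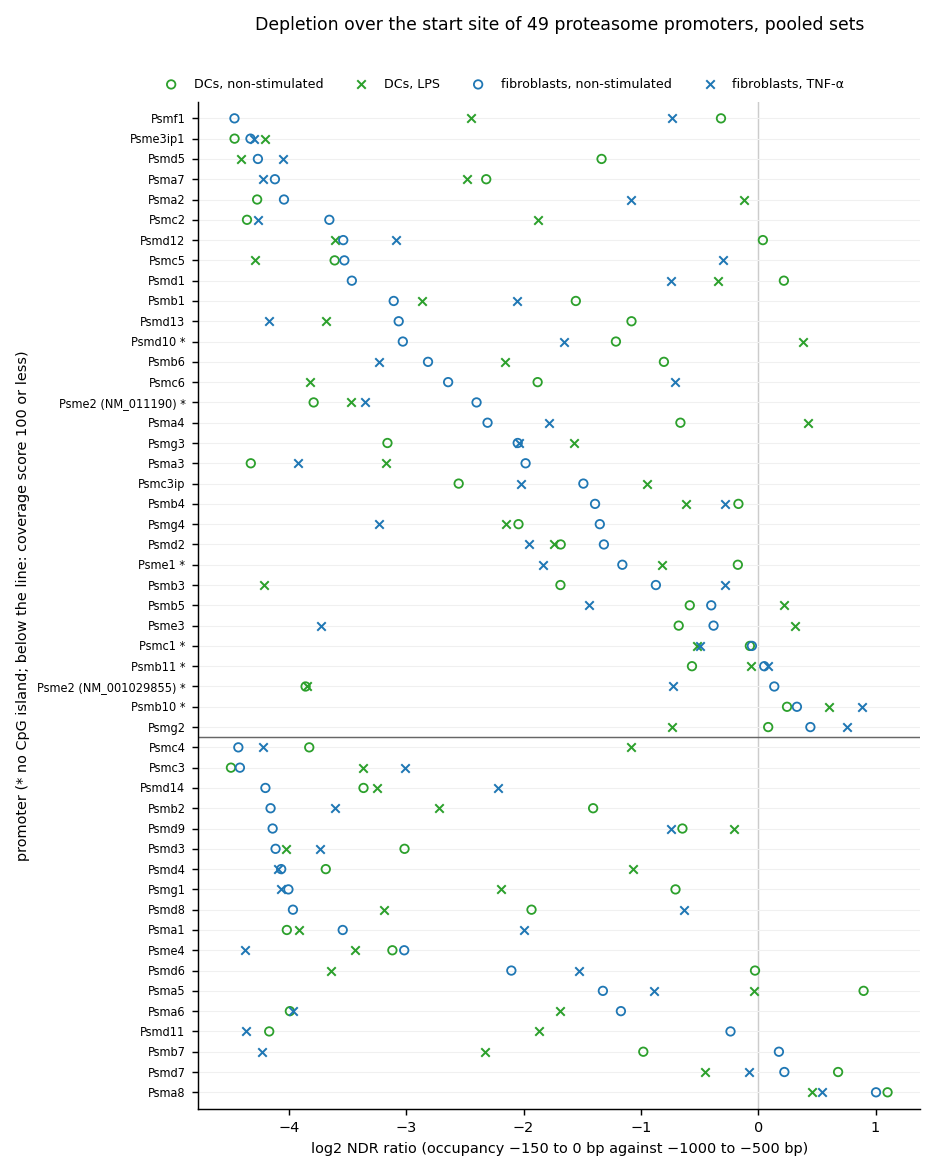
Log2 NDR ratio of each of 49 proteasome promoters in the 4 pooled sets (green DCs, blue fibroblasts; circles non-stimulated, crosses stimulated), ordered by the value in non-stimulated fibroblasts, with the 18 low-coverage members below the line and an asterisk at promoters without a CGI. Of the 31 above the line, 11 are below −1 in all 4 sets and 4 (Psmb10, Psmb11, Psmc1 and Psmg2) in none.

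With the members active in nearly every case (45 of 49 in fibroblasts and 47 of 49 in DCs, by expression above 0.02 of the mean), the level of expression was set beside patterning within each cell type. Across the 31 high-coverage members, Spearman's rho between patterning and expression was 0.61 in fibroblasts (Pearson's r 0.46) and −0.12 in DCs (r −0.14). Over all high-coverage promoters rho was 0.35 and 0.33. Promoters of one library share its depth and are not independent replicates, so these are descriptions without a p-value. Between cell types, patterning in fibroblasts and DCs was related across members by r 0.57 and rho 0.54, close to the 0.47 and 0.49 over all promoters.

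The distance between the nucleosomes flanking the start site was also measured at single members. In fibroblasts the +1 nucleosome lay at a median of 105 bp and the −1 nucleosome at −155 bp, with 280 bp between them, compared with 105, −135 and 240 bp at active promoters. In DCs the medians were 115, −105 and 230 bp against 95, −105 and 200 bp. The widest gaps in fibroblasts among high-coverage members were 590 bp at Psme3ip1, 500 bp at Psmd1 and 490 bp at Psma2.

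The pooled sets of DCs and fibroblasts were compared to see which members differ between cell types. The log2 NDR ratio was lower by more than 1 in DCs at 5 of 31 members, as it was at 17.2% of all promoters, and higher by more than 1 at 11 (22% of all). The 5 were both starts of Psme2, Psma3, Psmg3 and Psmc3ip. The higher ones were led by Psmf1, by 4.15, Psmd1, by 3.68, Psmd12, by 3.58, and Psmd5, by 2.93. At these 4 the pooled fibroblast set had a deep NDR that was shallow or absent in the pooled DC set. The 2 single libraries of non-stimulated control fibroblasts did not have it at 3 of them, with ratios of 0.27 and −0.96 at Psmf1, 0.20 and 1.76 at Psmd1, and −0.37 and 1.01 at Psmd12. At Psmd5 they had −0.60 and −3.28. Without replicates for either set there is no test of these differences, and cell type and origin (DCs differentiated from bone-marrow progenitor lines against 3T3 cells) cannot be told apart.

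LPS, a component of bacterial outer membranes that activates DCs, was compared with no stimulus in the pooled DC sets. The members' median patterning level was 15.1 before and 12.1 after LPS, and the median difference was −1.80, with 11 of 31 members higher. Over all promoters the median difference was 0.10. The members with the lowest differences were Psma2, from 32.5 to 8.56, Psme3, from 20.5 to −2.52, and Psmd10, from 13.7 to −7.86. The log2 NDR ratio was lower by more than 1 at 8 members (21% of all promoters) and higher by more than 1 at 7 (14.8% of all).

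At Psma2 the NDR ratio went from −4.27 to −0.12 with LPS, while at Psmd12 it went from 0.04 to −3.61, and at Psmd5 from −1.34 to −4.41. Differences within one complex thus had both signs. The same held for the interferon-linked genes. In patterning level Psmb10 went from 3.68 to −3.27, Psme1 from −2.73 to 1.43, and the starts of Psme2 from 12.3 to 6.68 and from 16.3 to 5.44. The NDR at Psme2 was deep in both states, with ratios of −3.86 and −3.85 at its upstream start. Of the excluded genes, Psmb9 went from −1.84 to 6.33 in level and from −0.70 to −4.07 in ratio. These changes come from 1 pooled set per state and were not tested.

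TNF-α, an inflammatory cytokine, was compared with no stimulus in the pooled fibroblast sets. The members' median patterning level was 15.3 before and 16.1 after, with a median difference of 4.86 and 18 of 31 members higher. Over all promoters the median difference was 0.23, and over the ribosomal protein promoters 0.53. The log2 NDR ratio was lower by more than 1 at 5 members (23.4% of all promoters) and higher by more than 1 at 8 (15.8% of all). On the mean profile the +1 nucleosome of the members was at 186.5% of the mean before and 270.8% after, while at active promoters it was 161.8% and 162.3%. In the single control libraries the members' +1 nucleosome was at 151.7 and 202.4% without and 190.5 and 246.1% with TNF-α. In the BAF-knockdown libraries it was at 144.8 and 171.1% without and 204.7 and 196.2% with it. Over the 8 single libraries the states thus overlapped.

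Psmc2 had the largest difference in level, from 17.6 to 48.3, followed by Psmg4, from 11.5 to 34.9, and Psma3, from 8.95 to 25.7. Psma2 went from 27.9 to 6.57 and Psma7 from 33.1 to 17.1. In NDR ratio, Psme3 went from −0.38 to −3.72, whereas Psmf1 went from −4.46 to −0.74 and Psmc5 from −3.53 to −0.30.

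Several of these differences had another direction in the single control libraries. Psma2 had levels of 4.53 and 14.1 without and 14.2 and 11.05 with TNF-α, and Psma7 −3.53 and 10.4 without and 16.3 and 17.4 with it. Psma3 went from 14.4 and 15.7 to 12.2 and 2.38. In NDR ratio Psme3 had −0.65 and −1.39 without and 0.12 in both libraries with TNF-α. The pooled values of single members under stimulation were thus not shared by separate libraries in these cases, whereas Psmc2 and Psmg4 had a higher mean with TNF-α in both kinds of data.

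The 8 single libraries allow a comparison with the spread between replicates. In each, the median patterning level of the 31 members was above that of all promoters (1.90 to 2.68). It was 4.53 and 6.07 in non-stimulated control fibroblasts, 5.57 and 4.67 in non-stimulated BAF-knockdown fibroblasts, 7.91 and 9.22 in stimulated control fibroblasts, and 6.28 and 8.09 in stimulated BAF-knockdown fibroblasts. All 4 stimulated libraries were above all 4 non-stimulated ones. The corresponding medians of all promoters overlapped between the states.

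Each promoter was fitted with limma (TNF-α and BAF knockdown as terms, 4 against 4 libraries for each). The study describes the libraries of a group as biological replicates, and the labels do not say whether they are separate cultures. For TNF-α and patterning, 0 of 31 members had an adjusted p under 0.05, as did 0 of all 13559 promoters (0%), and 5 members (5.68% of all promoters) had an unadjusted p under 0.05. The members' median coefficient was 2.62, with 24 of 31 above 0 (52.6% of all promoters, whose median was 0.23). The median standard error of a member's coefficient was 2.89. For the ribosomal protein promoters the median coefficient was −0.16, and for the members with and without a CGI it was 2.69 and 1.03. By role, the coefficient was above 0 at all 4 α-ring and all 7 β-ring promoters, and at 2 of 4 non-ATPase promoters.

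Psmb1, a structural β subunit, had the largest statistic. Its levels were 1.83 and 4.15 in control and 6.81 and 0.91 in BAF-knockdown fibroblasts without TNF-α, and 12.4, 9.68, 9.16 and 9.75 in the same order with it. The stimulated libraries all lay above the others, by 6.83 ± 1.93 (SE; limma adjusted p = 0.867). Such a separation upwards was found at 1 of 31 members and at 1.59% of all promoters. Psmc2 had levels of 5.85, 13.3, 9.73 and 7.57 without and 11.5, 16.8, 19.2 and 18.7 with TNF-α, groups that overlap, and a coefficient of 7.42 ± 2.49 (SE; limma adjusted p = 0.867).

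The only member lower in every stimulated library (1.05% of all promoters were) was the upstream start of Psme2. Its levels were 5.87, 8.95, 7.92 and 10.5 without and 2.16, 4.58, 3.13 and 4.83 with TNF-α, a coefficient of −4.62 ± 1.65 (SE; limma adjusted p = 0.867). In the pooled sets the same start went from 1.17 to 6.31, which is the opposite direction.

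For TNF-α and the log2 NDR ratio, 0 of 31 members and 0 of 13559 promoters (0%) passed the adjusted threshold, and 2 members had an unadjusted p under 0.05 (5.75% of all). The median coefficient was −0.38 with 8 of 31 above 0 (44.4% of all, median −0.08). Psmb3, a structural β subunit, had ratios of 0.03, 0.28, 0.14 and −1.06 without and −2.72, −3.62, −0.80 and −3.43 with TNF-α. Its coefficient was −2.49 ± 0.72 (SE; limma adjusted p = 0.790), although 1 stimulated library fell within the range of the others. The 3 lowest of these values come from empty windows and are at the floor. Psmb1 differed by −1.12 ± 0.46 (SE; limma adjusted p = 0.860), from ratios of −0.43, −0.83, −1.23 and 0.33 to −1.47, −1.18, −2.36 and −1.63. Psma3 differed by −0.78 ± 0.36 (SE; limma adjusted p = 0.887), from −2.73, −3.46, −1.12 and −1.67 to −3.65, −3.48, −2.86 and −2.12. No member was separated in either direction, as were 0.966% of all promoters upwards and 1.92% downwards.

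**Figure D5:**
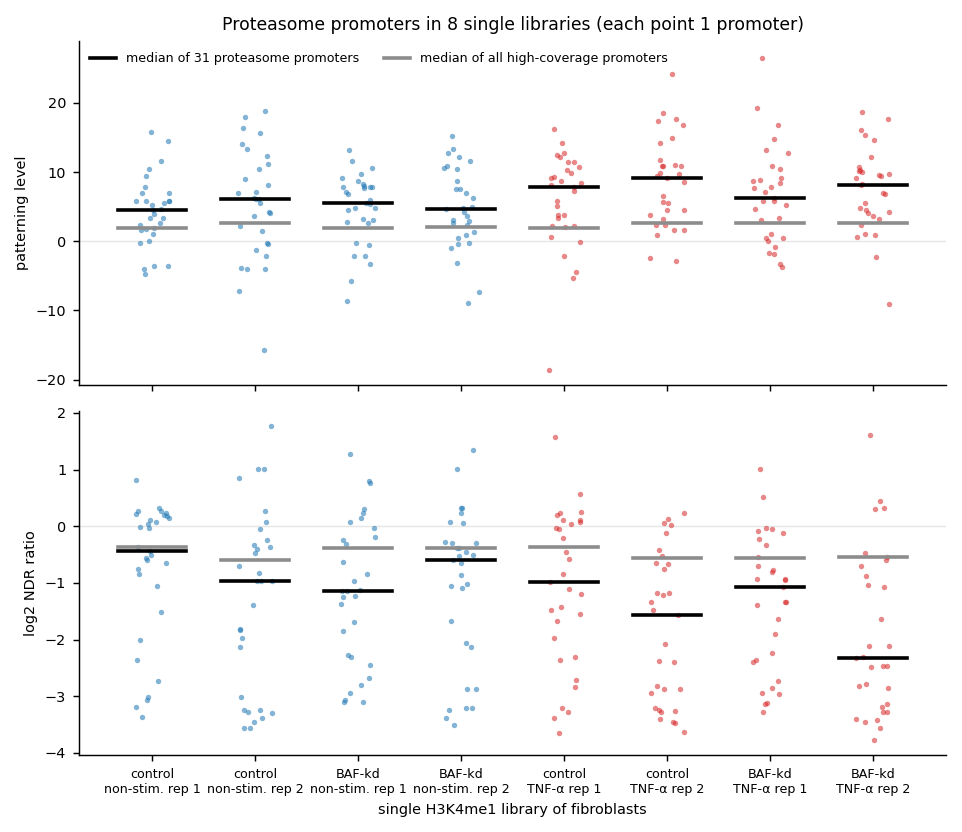
Patterning level (top) and log2 NDR ratio (bottom) of 31 proteasome promoters, 1 point each, in the 8 single H3K4me1 libraries of fibroblasts (blue non-stimulated, red TNF-α). Black bars are the members' medians, which in patterning run from 4.53 to 6.07 without and from 6.28 to 9.22 with TNF-α, and grey bars the medians of all high-coverage promoters.

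The BAF complex moves nucleosomes with the energy of ATP, and the knockdown libraries address whether the arrangement at these promoters depends on it. For patterning, 0 of 31 members and 0 of 13559 promoters (0%) passed the adjusted threshold in limma, and 3 members had an unadjusted p under 0.05 (5.84% of all). The median coefficient was −0.40, with 12 of 31 above 0 (50.5% of all, median 0.05). For the NDR ratio 0 of 31 members and 0 of all promoters (0%) passed, with 2 at an unadjusted p under 0.05 (5.25% of all) and a median coefficient of −0.34, 12 of 31 being above 0 (50% of all, median 0.00). Within replicate 1 the members' median difference in patterning was 1.18 and within replicate 2 it was −1.13, so its sign was not shared. Replicate numbers did not pair the libraries, so these are differences between libraries matched by number only. File names mark a lower amount of MNase for both replicate 1 BAF-knockdown libraries, so within replicate 1 knockdown and digestion cannot be told apart. The median coefficient was above 0 without non-stimulated control replicate 2 (0.28), stimulated control replicate 2 (0.29) or non-stimulated knockdown replicate 2 (0.32).

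Psmc6, the ATPase gene with adjoining ETS and SP1 matches, had levels of 15.8, 7.09, 12.7 and 17.7 in control and 3.09, −7.40, 0.50 and 12.1 in BAF-knockdown fibroblasts, each given as the 2 non-stimulated and then the 2 stimulated libraries. The coefficient was −11.22 ± 3.87 (SE; limma adjusted p = 0.821), and 1 knockdown library lay within the control range. Psmb4, a structural β subunit, had levels of −3.59, 2.24, 8.46 and 1.69 in control and 7.16, 12.1, 8.67 and 9.50 in knockdown fibroblasts, a coefficient of 7.16 ± 2.64 (SE; limma adjusted p = 0.821). At Psme1 all 4 knockdown libraries (7.82, 12.8, 8.40 and 9.16) lay above all 4 controls (5.31, −2.16, 5.82 and 4.52), with a coefficient of 6.18 ± 2.39 (SE; limma adjusted p = 0.839). It was the only such member, and 1.47% of all promoters were separated this way. No member was separated downwards (1.5% of all).

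In the NDR ratio, Psmb4 was the only member lower in every knockdown library (1.31% of all promoters were, and none of the members was higher in every one, against 1.36%). Its ratios were 0.82, −0.36, −0.04 and −0.64 in control and −1.84, −2.13, −0.77 and −1.08 in knockdown fibroblasts, a coefficient of −1.40 ± 0.48 (SE; limma adjusted p = 0.921). With the window moved to −100 to 50 bp the Psmb4 coefficient was −0.31 ± 0.76 (SE). Psma3 had ratios of −2.73, −3.46, −3.65 and −3.48 in control and −1.12, −1.67, −2.86 and −2.12 in knockdown fibroblasts. Its coefficient was 1.39 ± 0.36 (SE; limma adjusted p = 0.850), and with the window moved to −100 to 50 bp it was −0.04. Its window was empty in 3 of the 4 control libraries and in none of the knockdown libraries. Psmg3, an assembly chaperone, had a coefficient of −1.65 ± 0.72 (SE; limma adjusted p = 0.922), with ratios of −1.05, −0.25, 0.56 and −0.12 in control and −2.45, −0.39, −1.34 and −3.28 in knockdown fibroblasts.

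Whether the difference with TNF-α was another one in knockdown cells was tested as an interaction. By limma, 0 of 31 members and 0 of 13559 promoters (0%) passed the adjusted threshold, and 1 member, Psme3, had an unadjusted p under 0.05 (5.65% of all). The median interaction coefficient of the members was −1.16, with 14 of 31 above 0 (53.4% of all, median 0.61), and it was 0.37 without non-stimulated control replicate 1 and 0.44 without stimulated control replicate 2.

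Pol-II S7P marks elongating polymerase, so these libraries report on promoters in chromatin that carries it, and they were compared with the stimulated control H3K4me1 libraries. Patterning was compared on occupancies relative to the mean of each library, and the NDR ratio was taken from occupancies as given. By limma, 0 of 31 members and 0 of 13559 promoters (0%) passed the adjusted threshold for patterning, and 1 had an unadjusted p under 0.05 (6.2% of all). The members' median coefficient was −3.42, with 8 of 31 above 0 (48.1% of all, median −0.16), and it was −1.06 without the scaling and −1.71 without S7P replicate 2. For ribosomal protein promoters the median was −1.92 and for all CGI promoters −0.58. Both S7P libraries lay below both H3K4me1 libraries at 11 members (18.6% of all promoters) and above them at 2 (17.7% of all). The S7P libraries are paired-end and the others single-end, so antibody and type of sequencing cannot be told apart. The S7P libraries also covered more bins at the members (84.6 and 90.0%) than the stimulated control libraries did (74.2 and 61.5%). Coverage can thus not be told apart from antibody either.

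The α-ring promoters were lower in S7P at 4 of 4, with a median coefficient of −6.82. Psma7 had scaled levels of 1.31 and 7.06 in S7P against 20.3 and 21.9 in H3K4me1, a coefficient of −16.9 ± 3.77 (SE; limma adjusted p = 0.743). Psma2 had 7.30 and 7.34 against 17.7 and 13.9.

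For the NDR ratio 0 of 31 members and 0 of all promoters (0%) passed in limma, with 4 members at an unadjusted p under 0.05 (10.1% of all) and a median coefficient of 0.79, 22 of 31 being above 0 (54.4% of all, median 0.14). A shift in the same direction was found at ribosomal protein promoters, with a median of 0.53 and 66.7% above 0. All CGI promoters had a median of 0.42 and 61.9% above 0. Without stimulated control replicate 2 the members' median coefficient was 0.0072, and with occupancies divided by the library mean before 0.1 was added it was 0.96. Windows were empty at 6 and 15 members in the H3K4me1 libraries and at 2 and 1 in the S7P libraries. Both S7P libraries were above both H3K4me1 libraries at 10 members (22.1% of all) and below at 2 (16.7% of all). The 4 were Psmc6, Psma7, Psma3 and Psmc5, which rank by p and were named after their values were seen. At Psmc6 the ratios were −0.41 and −0.61 in S7P against −3.29 and −2.87 in H3K4me1, a coefficient of 2.57 ± 0.47 (SE; limma adjusted p = 0.290), both H3K4me1 windows being empty. At Psma7 they were −0.46 and −0.92 against −3.21 and −3.28, which are empty windows too. Occupancy over the start site was thus higher in the S7P libraries at these 4, by amounts that did not pass the adjusted threshold.

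Pol-II S5P marks initiating polymerase and was measured in 1 library. The members' mean profile in it had a low of 9.68% and a +1 nucleosome of 285.9% of the mean, against 34.6% and 221.1% at active promoters. These are extremes of means over very unlike numbers of promoters. Set beside the pooled stimulated fibroblasts after scaling, the members' patterning differed by a median of 2.19, with 20 of 31 higher, and all promoters by 1.77. From occupancies as given, the log2 NDR ratio was lower by more than 1 in S5P at 7 members (19.4% of all promoters) and higher at 8 (29.1% of all). With each set divided by its mean before 0.1 was added, which brings the floors together, it was lower at 7 (19.9% of all) and higher at 4 (23.1% of all). On that scale Psmc5 had a ratio of −3.16 in S5P against −0.29, and Psmb3 −2.34 against −0.27, while Psme3 had −0.60 against −3.09. Across the 31 members, the level in S5P was related to that in non-stimulated fibroblasts by r 0.68 and rho 0.65.

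Of the 4 lowest members in non-stimulated fibroblasts, 2 lay below the median of all promoters in S5P (5.63). These were Psmb10, with a level of −5.96 and a ratio of 0.89, and Psmc1, with 3.79 and −1.14. The others lay above it, Psmg2 at 7.12 with a ratio of 0.17, and Psmb11, which is hardly expressed in these cells, at 7.78 with −0.32. Psmd13 (24.6), Psmc2 (23.1), Psmd5 (20.6) and Psmd10 (20.2) were the highest, of which the first 3 were also among the higher members in H3K4me1 libraries of fibroblasts.

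Other genes of the ubiquitin-proteasome pathway were taken from a list of 24 genes, of which 23 were found, with 27 promoters, 15 of them of high coverage. Their median patterning levels, 12.3 in fibroblasts and 12.0 in DCs, lay below those of the proteasome promoters, and no test of this difference was made. Shuttle factors that bring ubiquitylated proteins to the proteasome, and the p97 segregase group, had medians of 13.6 and 20.4 in fibroblasts and DCs (5 promoters). The regulators, which include the transcription factor Nfe2l1 known to raise proteasome genes when degradation fails, had 13.96 and 7.71 (5 promoters). Under TNF-α the median patterning coefficient of the 15 was 1.33, with 8 above 0, and under BAF knockdown 0.39, with 9 above 0. None passed the adjusted limma threshold (0% of all promoters), and 0 of the 15 had an unadjusted p under 0.05 for patterning in either of these comparisons. For the NDR ratio 3 of the 15 had one under TNF-α (5.75% of all promoters) and 3 under BAF knockdown (5.25% of all), with none called by adjusted p.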

How the data were processed

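The 49 promoters, gene lists and comparisons were chosen with earlier results of these data known. Per the sources, the authors aligned reads to mm9 with bowtie, filtered duplicate reads, selected paired-end fragments of mononucleosomal size (single-end reads were extended), and counted fragments in 10 bp bins relative to the surrounding 1 kb. The deposited occupancies are this signal, with an empty bin read as 0. The deposited annotation gives a coverage signal per promoter (its score column, the fragments near the start site) and, as a score on a scale not stated there, expression that the authors took from RNA-seq of non-stimulated cells, used only within a cell type. Its 2 columns of the authors' log2 expression differences on stimulation were not used, so active promoters include inducible ones. Plus-strand starts in it count from 1.

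RefSeq symbols matched 24920 of 25881 promoters. Templates for patterning levels were rescaled from 0 to 1 and centred, and fibroblast templates also served pol-II libraries. Promoters with a score above 100 were fitted with limma 3.58.1 (R 4.3.3; Benjamini-Hochberg over all of them, 0.05), tested on simulated data. The first rule on names gave, for each TNF-α and BAF comparison, the 3 members with the largest statistics, and further rules gave the 5 highest and lowest members per cell type, catalytic, immune and tissue-restricted members and those of low coverage. Other members were named after their values were seen. CGIs, motifs and sequences were read from NCBIM37. Alternatives covered promoters tested, variance model, scaling, template, pseudocount (0.02, 0.5), window and libraries left out. The labels' titles gave groups and replicate numbers.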

Additional observations from a re-analysis of the deposited data

Results flagged for a closer look

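The members' patterning had opposite median differences under the stimulus of each cell type in the pooled sets. In DCs the median difference on LPS was −1.80 (11 of 31 members higher), and in fibroblasts the median difference on TNF-α was 4.86 (18 of 31 higher). All promoters had medians of 0.10 and 0.23. It stands out because the 2 groups differ in sign under stimulation, but each rests on 1 pooled set per state, the stimuli differ, and the difference was not tested.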

How the results depend on the processing

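No alternative fit called a member: in 100 alternative fits over the 7 comparisons the count was 0 by adjusted p. The members' median patterning coefficient for TNF-α stayed above 0 in all of them (1.89 to 3.31), and its NDR coefficient below 0 (−0.74 to −0.18). For BAF knockdown the median patterning coefficient took both signs when single libraries were left out (−0.75 to 0.32). Without both replicate 1 BAF-knockdown libraries, whose file names mark a lower amount of MNase, an alternative chosen after seeing the data, it was −0.06 and that of the NDR ratio −0.19.

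The median interaction coefficient was 0.78 with all promoters, −2.54 with coverage above 200, and −2.37 to 0.44 with single libraries left out. For S7P patterning the median was −2.43 with all promoters, −5.19 with coverage above 200, −1.06 with occupancies as given, and −3.89 to −1.71 with single libraries left out. For the S7P NDR ratio it was 0.52 with coverage above 200, 1.15 and 0.25 with pseudocounts of 0.02 and 0.5, 1.12 with the window from −100 to 50 bp, and 0.0072 to 0.92 with single libraries left out, the lowest being without stimulated control replicate 2. With that window the Psma3 NDR coefficient for BAF knockdown reversed to −0.038, and that of Psmb4 was −0.31. The cause was not tested. Replicate numbers did not pair the libraries (correlations of deviations −0.018 to 0.028), and with the replicate number as a block 0 members were called in each comparison.

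A member's patterning coefficient had a median standard error of 2.89 for TNF-α or BAF knockdown (4 against 4 libraries) and 4.31 for S7P (2 against 2). Differences of about that size were not detectable, and larger ones were not called either. An example was Psmc6 under BAF knockdown, at −11.22 ± 3.87 (SE). The absence of calls thus does not exclude differences larger than the standard error. Dividing occupancies by the library mean before 0.1 was added, also chosen after seeing the data, gave 0.96 for the S7P NDR ratio. Empty windows limit the depth of an NDR that can be measured.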
